A study of Mus musculus with 158 samples.

Results

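Whole kidney was compared with liver, lung and B cells in the RNA-seq tables of hybrid mice. The kidney libraries were chosen by their tissue label and number 4 of the 17 RNA-seq libraries, in a series of 158 samples. All mice were F1 hybrids, 8 weeks old, born to C57BL/6J (B6) mothers and sires of another strain or species. Kidney, liver and lung each had 4 libraries, made of 1 B6xPWK (sire PWK/PhJ), 2 B6xSPRET (sire SPRET/EiJ) and 1 B6xC3H (sire C3H/HeJ) sample, and kidney libraries 1 to 4, numbered here in the order of deposit, were B6xPWK, B6xSPRET, B6xSPRET and B6xC3H. The 5 B cell libraries were 2 B6xPWK, 1 B6xC3H, 1 B6xSPRET and 1 sample labelled B6xCAST (sire CAST/EiJ), which the sample table of the study lists as B6xC3H. The DNase data used further on came from the same tissues of these hybrids and of B6x129. None of the mice carried a transgene, a deletion or a treatment according to the labels. The solid tissues were typically pooled from several mice sacrificed together, and the B cells came from femoral marrow of females by removal of cells carrying CD43 or Mac-1, so that p-values measure the spread between such pools and preparations. A library of whole kidney mixes the epithelia of all nephron segments with glomeruli, vessels and interstitium.

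The kidney filters blood in the glomerulus and then returns most of the filtrate to the body along the tubule. The proximal tubule takes up glucose, phosphate, amino acids and filtered proteins through transporters of the apical membrane and secretes organic anions. The thick ascending limb of the loop of Henle, which makes uromodulin and epidermal growth factor, reabsorbs salt, and the distal convoluted tubule and collecting duct set the final salt and water content under hormones such as vasopressin. Pax8 and the hepatocyte nuclear factors HNF1 and HNF4 are transcription factors of tubular epithelium.

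Each gene was read together with the gene on the other strand, because genes of the nephron were rarely high in the tables while genes lying opposite them were. The library kit keeps the strand of the RNA. The strand setting of the counting program is not given in the sources used here, so for overlapping genes the table alone does not say which of them was transcribed. The partner of a gene is here the gene on the other strand with the longest overlap of exons, otherwise the one with the longest overlap of gene bodies, otherwise the nearest within 10 kb (GENCODE vM21 annotation, mouse build GRCm38/mm10).

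The 250 bases before the start of 5 partners are shown because these genes lay opposite counted genes that were high in kidney and because their starts held DNase hotspots in kidney, described further on. Umod encodes uromodulin, Slc3a1 a subunit of the cystine transporter, Slc5a10 a sugar transporter, Avpr2 the vasopressin V2 receptor and Pax8 a transcription factor. The sequences are from RefSeq on GRCm38.p6 and are written 5′ to 3′ along the strand of the named gene. They lie at chr7:119479263-119479512 on the minus strand for Umod, chr17:85028097-85028346 on the plus strand for Slc3a1, chr11:61720800-61721049 on the minus strand for Slc5a10, chrX:73891852-73892101 on the plus strand for Avpr2 and chr2:24475600-24475849 on the minus strand for Pax8. Capitals mark matches to the HNF4 motif CAAAGTCCA or to the hexamer GTTAAT, which occurs in HNF1 sites, and both strands were searched for motifs that do not overlap each other.
Umod: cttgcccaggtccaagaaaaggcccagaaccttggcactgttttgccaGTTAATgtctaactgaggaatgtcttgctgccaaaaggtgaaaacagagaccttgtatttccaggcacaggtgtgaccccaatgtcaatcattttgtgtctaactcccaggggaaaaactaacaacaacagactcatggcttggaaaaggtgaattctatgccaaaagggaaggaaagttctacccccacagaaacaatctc
Slc3a1: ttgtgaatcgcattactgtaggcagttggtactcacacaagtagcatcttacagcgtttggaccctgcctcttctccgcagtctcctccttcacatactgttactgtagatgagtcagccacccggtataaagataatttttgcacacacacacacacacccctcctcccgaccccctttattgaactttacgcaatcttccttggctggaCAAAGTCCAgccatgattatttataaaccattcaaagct
Slc5a10: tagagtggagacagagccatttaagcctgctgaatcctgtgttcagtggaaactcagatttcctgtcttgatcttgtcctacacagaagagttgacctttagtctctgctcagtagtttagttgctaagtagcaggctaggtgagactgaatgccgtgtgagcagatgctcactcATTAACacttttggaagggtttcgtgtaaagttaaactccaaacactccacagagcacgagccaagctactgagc
Avpr2: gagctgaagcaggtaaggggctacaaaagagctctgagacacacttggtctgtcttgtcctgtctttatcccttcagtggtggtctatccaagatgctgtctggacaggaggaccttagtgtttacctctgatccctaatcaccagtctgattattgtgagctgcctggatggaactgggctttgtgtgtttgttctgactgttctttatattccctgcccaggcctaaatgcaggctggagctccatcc
Pax8: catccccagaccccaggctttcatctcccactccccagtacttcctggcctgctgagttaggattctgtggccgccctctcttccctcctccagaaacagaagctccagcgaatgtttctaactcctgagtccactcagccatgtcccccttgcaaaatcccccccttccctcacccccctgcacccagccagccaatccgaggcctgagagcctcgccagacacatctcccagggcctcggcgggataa

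The hexamer stood with its first base at position -202 of Umod and -75 of Slc5a10, the HNF4 motif at -39 of Slc3a1, and the windows of Avpr2 and Pax8 held neither. A second annotated start of Slc5a10, with the window chr11:61719986-61720235, held neither. Other named partners met the same conditions for display and most of their windows held neither, so the 5 shown do not give the frequency of the motifs. Of the 123 partners of kidney-high genes (defined further on) with an entry in the promoter table, 11 (8.94%) held the hexamer in this window, beside 5.18% of the partners of all genes tested and 7.49% of all 27025 genes of the table. Of 128 kidney-high genes with an entry of their own, 12 (9.38%) held the hexamer and none the HNF4 motif, so the hexamer was no more frequent at the partners. Among the partners the HNF4 motif was in 2 of the 123 windows (1.63%), in 0.51% of those of the partners of all genes tested and in 0.451% of the table, so its share describes few matches.

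Summed expected counts were 437171 to 551273 in the kidney libraries, 283725 to 322257 in liver, 380115 to 387504 in lung and 285191 to 809337 in B cells. In every tissue these totals were far below the uniquely mapped reads that the study lists for the same libraries. Most mapped reads were thus not in the gene tables, and the reason was not tested. Between 11773 and 13286 genes had a count in a kidney library. The Pearson correlation of log2 CPM, counts scaled to a common library size with normalization factors, was 0.924 to 0.942 over the 6 pairs of kidney libraries, and 0.662 to 0.718 between kidney and liver, 0.496 to 0.662 between kidney and lung and 0.354 to 0.439 between kidney and B cells, across genes that are not independent replicates. No kidney library stood apart from the others. The normalization factors were 0.72 to 0.91 in kidney, 0.37 to 0.67 in liver, 1.41 to 1.88 in lung and 1.21 to 1.60 in B cells.

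A total of 4479 genes passed the filter on low counts and were tested with the quasi-likelihood test of edgeR at a Benjamini-Hochberg adjusted p of 0.05. Against the mean of the other tissues, 1039 genes (23.2%) were higher and 417 (9.31%) lower in kidney, 32.5% in either direction. Kidney was higher than liver at 689 genes (15.4%) and lower at 442 (9.87%), higher than lung at 889 (19.8%) and lower at 970 (21.7%), and higher than B cells at 1460 (32.6%) and lower at 1243 (27.8%). In either direction these were 25.3%, 41.5% and 60.3% of the genes tested. In all 3 pairwise comparisons together, 234 genes (5.22%) were higher in kidney, called kidney-high here, and 39 (0.871%) lower, called kidney-low. In these bulk samples, more cells of a type and more RNA per cell cannot be told apart. The split of the calls depended on scaling. With total counts alone, 55.9% of the calls against the mean were higher in kidney instead of 71.4%, 84.6% instead of 60.9% against liver, 16.8% instead of 47.8% against lung and 36.1% instead of 54.0% against B cells, and the median log2 difference of all genes moved from 0.09 to -0.24, from 0.24 to 0.88, from -0.09 to -0.97 and from 0.02 to -0.68. With relative log expression factors the share against lung was 35.8% and the median -0.36.

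Kidney-high genes held 15.7 to 17.9% of all counts of a kidney library, beside 0.58 to 1.20% in liver, 1.72 to 2.37% in lung and 0.84 to 0.93% in B cells. All 234 had at least 10 CPM in every kidney library, which the count filter fixes for genes that passed it through kidney alone. At 206 of them the lowest kidney library lay above the highest library of any other tissue. These genes were chosen on the same values, so the lack of overlap describes the choice and is no separate support. This also holds where lack of overlap is given for single kidney-high genes below. At 65 genes every liver library was at 0, at 19 every lung library and at 45 every B cell library, and 26 had no more than 3 counts in the 13 other libraries together. The shares of such genes among all genes tested were not counted. Library sizes after scaling were 103132 to 192831 in liver and 503948 to 634528 in lung, so numbers of genes at 0 cannot be compared directly between tissues. Levels were similar between kidney libraries for most of the 150 genes with at least 100 CPM, with a median ratio of the highest to the lowest library of 1.82, and 17 had a ratio over 3. The widest spread was that of Sycp3, opposite the choline phosphotransferase gene Chpt1, with 3198, 1962, 1102 and 297 CPM in kidney libraries 1 to 4. Fewer genes were called against liver than against lung or B cells. At 319 genes kidney was higher than lung and B cells and did not pass the test against liver, and at 98 it was higher than those tissues and lower than liver. The count was 158 for genes that passed against liver and B cells but not against lung, and 24 for those that passed against liver and lung but not against B cells. A gene that did not pass need not be at the same level in both tissues, and liver libraries were the smallest after scaling.

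**Figure D1:**
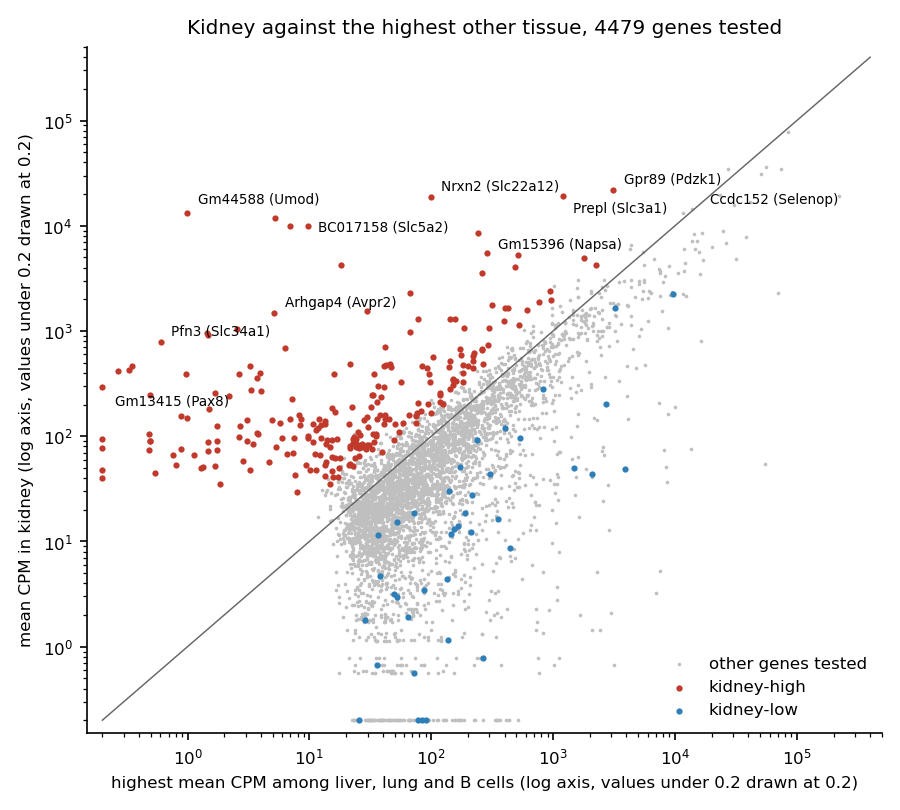
Mean CPM in the 4 kidney libraries (vertical, log axis) against the highest of the mean CPM values of liver, lung and B cells (horizontal, log axis) for the 4479 genes tested. Red points are the 234 kidney-high and blue points the 39 kidney-low genes, the line marks equal values, and labels give the counted gene with its partner in parentheses. Gm44588 opposite Umod lies far above the line, while Ccdc152 opposite Selenop lies below it.

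Of the kidney-high genes, 155 (66.2%) shared exon sequence with a gene on the other strand, beside 62.9% of all genes tested, and 133 (56.8%) with a protein-coding one, beside 52.3%. Overlap was thus common among all genes counted and near its background among the kidney-high ones. Another 27 overlapped only the body of a gene on the other strand, 33 had one within 10 kb and 19 had none. By annotation 134 (57.3%) were protein-coding, as were 57.2% of all genes tested, and 52 (22.2%) antisense transcripts, beside 19.4%. The 155 genes lay opposite 149 distinct partners. Counts on genes with exons opposite another gene made up 85.3 to 88.4% of each kidney library.

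The largest differences in the thick ascending limb lay opposite Umod and Egf. Gm44588, an antisense transcript (chr7:119462821-119472478, plus strand) that shares 539 bases of exon with Umod, had 19982, 12105, 8779 and 11551 CPM in kidney libraries 1 to 4, 0 in every liver library, 1.96 in 1 lung library and 4.99 in 1 B cell library. Every kidney library was far above all others. Kidney was at least 2724-fold higher than liver, taking 3 counts over the liver libraries as the floor (edgeR adjusted p = 6.54e-10). Egf, the epidermal growth factor precursor gene, lay opposite 2 of the largest differences. 6330410L21Rik (chr3:129753758-129763884, plus strand) had 14238, 10029, 11685 and 10979 CPM in kidney and Gm42697 (chr3:129728845-129740188, plus strand) 9999, 8274, 10124 and 11350. The highest values in the other tissues were 13.3 and 15.6 CPM, so that neither gene overlapped between kidney and the rest. Gm42697 was 1420-fold higher than liver, 4386-fold higher than lung and 5136-fold higher than B cells (log2 difference from their mean 11.44 ± 0.44 (SE), edgeR adjusted p = 4.82e-15). These ratios are imprecise, since they rest on 5 counts in liver, 5 in lung and 6 in B cells.

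The loop of Henle list held 25 genes, of which 6 had a partner relation to 7 genes tested, Egf to 2 of them. All 7 were kidney-high, beside 5.22% of all genes tested. Their median log2 difference from the mean of the other tissues was 9.19, and 7.25 with genes at 0 elsewhere set to their floor, beside 0.09 and 0.04 over all genes tested. Outside kidney none of the 7 exceeded 23.6 CPM in any library, so all passed the count filter through kidney alone. Being tested thus nearly fixed the call. The lists were also chosen with earlier results of these data known, so these shares are no separate support. The same holds for genes of the lists below that were counted in kidney alone. Besides Umod and Egf the list genes included Slc12a1, Ppp1r1a and Ppp1r1b. Slc12a1 encodes the salt cotransporter NKCC2 that furosemide blocks, and Gm14002, inside its body, had 317 to 474 CPM in kidney, up to 13.9 in lung and 0 in every liver and B cell library. Ppp1r1b and Ppp1r1a encode inhibitors of protein phosphatase 1, and 1700003D09Rik opposite the former and Pde1b within 10 kb of the latter had 62.7 ± 8.1 and 58.6 ± 10.5 CPM in kidney (SD, n = 4). Only 3 genes of the list were tested under their own name, none was kidney-high and 2 were lower in kidney than the mean of the other tissues. Summed over the 8 genes with exons opposite the list, kidney libraries held 30650 to 44585 CPM, liver libraries up to 21.1, lung 21.4 to 37.3 and B cells 1.76 to 28.3.

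**Figure D2:**
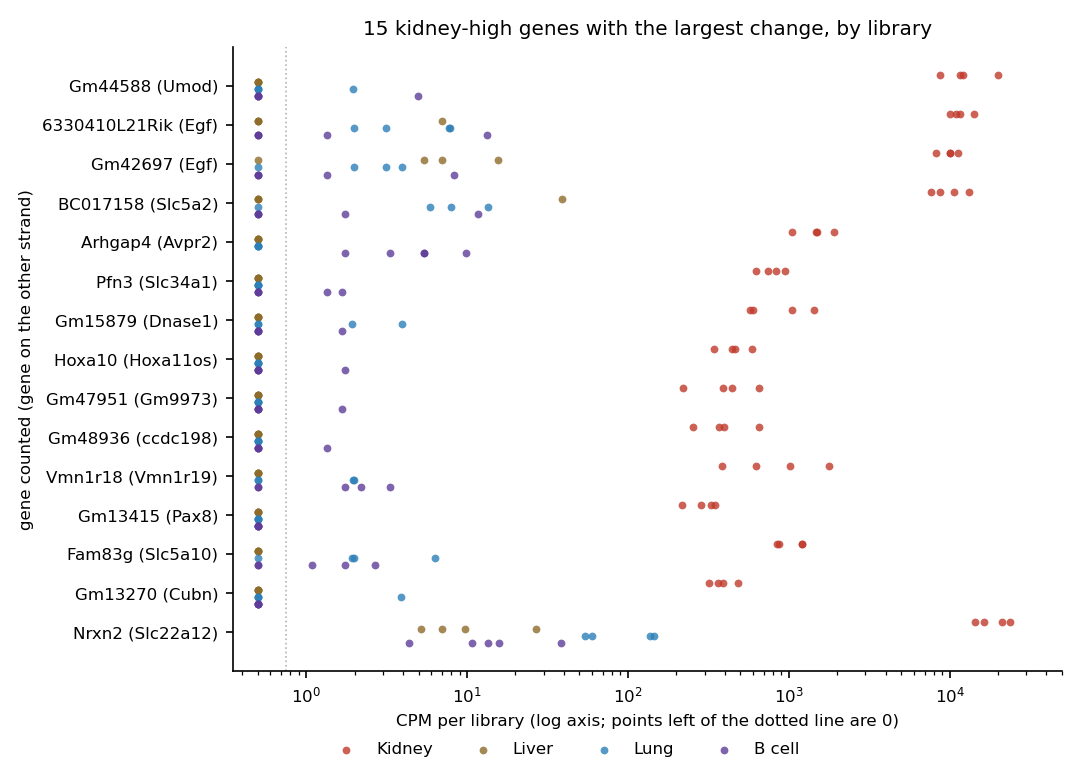
CPM in each library (log axis, values of 0 drawn left of the dotted line) for the 15 kidney-high genes with the largest difference from the mean of the other tissues, with the gene on the other strand in parentheses. Each point is 1 library, coloured by tissue. For all 15 genes the 4 kidney points lie above every point of liver, lung and B cells, from 217 CPM upwards. The genes were chosen on these values, so the separation describes the choice.

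Several transporters of the proximal tubule lay opposite kidney-high genes, with mean levels from 391 to 18969 CPM. BC017158 (chr7:128271379-128298170, minus strand) shares 597 bases of exon with Slc5a2, the glucose transporter SGLT2, and had 8677, 7652, 13228 and 10654 CPM in kidney against at most 38.8 in any other library. Its log2 difference was 10.92 ± 0.58 (edgeR adjusted p = 2.65e-13). Nrxn2 (chr19:6418731-6544169, plus strand), a neurexin gene, shares 682 bases with Slc22a12, the urate transporter URAT1. It had 14485, 21266, 23718 and 16409 CPM in kidney, 5.19 to 26.9 in liver, 54.4 to 145 in lung and 4.38 to 38.3 in B cells, 1553, 191 and 1146-fold differences of the means. The ratio to liver rests on 8 liver counts. The groups did not overlap (log2 difference 9.42 ± 0.40, edgeR adjusted p = 1.22e-14). Pfn3 (chr13:55414688-55415232, minus strand), a small profilin gene contained in the region of the phosphate transporter gene Slc34a1, had 943, 624, 739 and 834 CPM in kidney, 0 in every liver and lung library and at most 1.66 in B cells. Kidney was at least 163-fold higher than liver and at least 566-fold higher than lung (edgeR adjusted p = 2.35e-09 and 2.42e-10). Fam83g (chr11:61684091-61709951, plus strand), opposite Slc5a10, had 1217, 1203, 875 and 841 CPM in kidney, 0 in every liver library and at most 6.30 elsewhere. Gm13270 (chr2:13271601-13325827, plus strand), opposite Cubn, the gene of the protein uptake receptor cubilin, had 320 to 484 CPM in kidney and counts in 1 lung library only outside it (3.88 CPM).

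Some genes opposite proximal tubule genes were also counted in another tissue, most of them in liver. Gpr89 (chr3:96868281-96905346, minus strand), opposite the scaffold protein gene Pdzk1, had 19918, 20469, 24013 and 22444 CPM in kidney and 2468 to 3759 in liver, with 13.1 on average in lung and 5.88 in B cells. Kidney and liver did not overlap and differed 6.98-fold (edgeR adjusted p = 1.10e-03). Prepl (chr17:85063470-85090241, minus strand), opposite Slc3a1, had 14750, 22769, 26357 and 12416 CPM in kidney and 622 to 1985 in liver, a 15.9-fold difference (edgeR adjusted p = 1.95e-06). Gm15962, opposite the acyltransferase gene Keg1, had 1747 ± 242 CPM in kidney and 315 in liver and 0 in every lung and B cell library (n = 4, SD). Gm15396 lay opposite Napsa, which encodes the protease napsin A of proximal tubule and of type II cells of the lung, and had 3525, 7002, 8044 and 3264 CPM in kidney, 106 to 276 in lung, 195 to 533 in B cells and at most 9.70 in liver.

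Of the 72 genes of the proximal tubule list, 20 were partners of 24 genes tested. Of those 24, 21 were higher in kidney than the mean of the other tissues and none lower, and 15 were kidney-high, lying opposite 13 list genes, where 23.2% of all genes tested were higher than the mean and 5.22% kidney-high. The median log2 difference of the 24 was 5.87, or 5.66 with genes at 0 set to their floor. Oxa1l opposite the amino acid transporter gene Slc7a7, Gm9877 opposite the monocarboxylate transporter gene Slc16a9 and Sacm1l opposite the amino acid transporter gene Slc6a20b were among them, with 985 ± 541, 733 ± 360 and 695 ± 111 CPM in kidney (SD, n = 4). Read under their own names, 14 list genes were tested, 9 were higher in kidney and 3 were kidney-high, with a median log2 difference of 1.55. These 3 were Lrp2, the gene of the uptake receptor megalin, with 83.9, 157, 183 and 105 CPM in the kidney libraries, Acsm2 with 102 to 236 CPM and the androgen-regulated Kap. Summed over the 19 genes with exons opposite the list, kidney libraries held 84875 to 127852 CPM, liver 31491 to 51575, lung 651 to 1311 and B cells 348 to 688.

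The collecting duct and distal tubule gave few genes to test. Arhgap4 (chrX:73891442-73921870, minus strand) contains the whole of Avpr2 on its other strand and shares 2347 bases of exon with it. It had 1492, 1487, 1900 and 1056 CPM in kidney, 0 in every liver and lung library and 1.76 to 9.85 in B cells. Kidney lay above all others, at least 308-fold over liver and at least 1070-fold over lung, and 288-fold over B cells. Gm48135, within 10 kb of Fxyd2, a regulatory subunit of the sodium pump, had 110 to 174 CPM in kidney and at most 3.97 elsewhere. Gm11615, opposite the kinase gene Wnk4, had 74.8 to 109 CPM in kidney and up to 14.2 in lung. In the collecting duct list 3 genes were tested as partners, 3 were higher in kidney than the mean and 2 kidney-high, and in the distal convoluted tubule list 2, 2 and 1. Of 3 genes opposite the glomerulus and juxtaglomerular list 2 were higher than the mean and none was kidney-high. Over all genes tested, 23.2% were higher than the mean and 5.22% kidney-high.

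Among transcription factors, Pax8 lay opposite Gm13415 (chr2:24440418-24486855, plus strand), which had 347, 284, 217 and 329 CPM in kidney and 0 in all 13 other libraries. The kidney was at least 61.2-fold higher than liver, at least 212-fold higher than lung and at least 313-fold higher than B cells. Of 10 genes tested opposite the 54 listed factors, 9 were higher in kidney than the mean and 5 were kidney-high (23.2% and 5.22% of all genes tested). The 5 lay opposite Pax8, Hoxd3, Ppargc1a and, in 2 cases, the nuclear receptor gene Esrrg. Under their own names 6 of the factors were tested and 4 were kidney-high. Hoxa10 (chr6:52231197-52240854, minus strand), a homeobox gene with Hoxa11os within 10 kb, had 447, 345, 466 and 591 CPM in kidney and 1.76 in 1 B cell library only. Hoxb7, Hoxd8 and the POU factor gene Pou3f3 had 47.4 ± 8.0, 40.5 ± 7.0 and 48.0 ± 5.5 CPM in kidney (SD, n = 4). Genes with names ending in os, with or without a number, were kidney-high in 5 of 88 cases, near the 5.22% of all genes tested. The ending is given for lying on the opposite strand of another gene, but the pattern also takes in other genes whose names end so. The 5 were Hoxb3os with 970 to 1332 CPM, Efhd1os with 266 to 524, Slc13a2os with 241 to 396, Hoxd3os1 with 208 to 369 and Rapgef3os2 with 66.4 to 96.2.

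**Figure D3:**
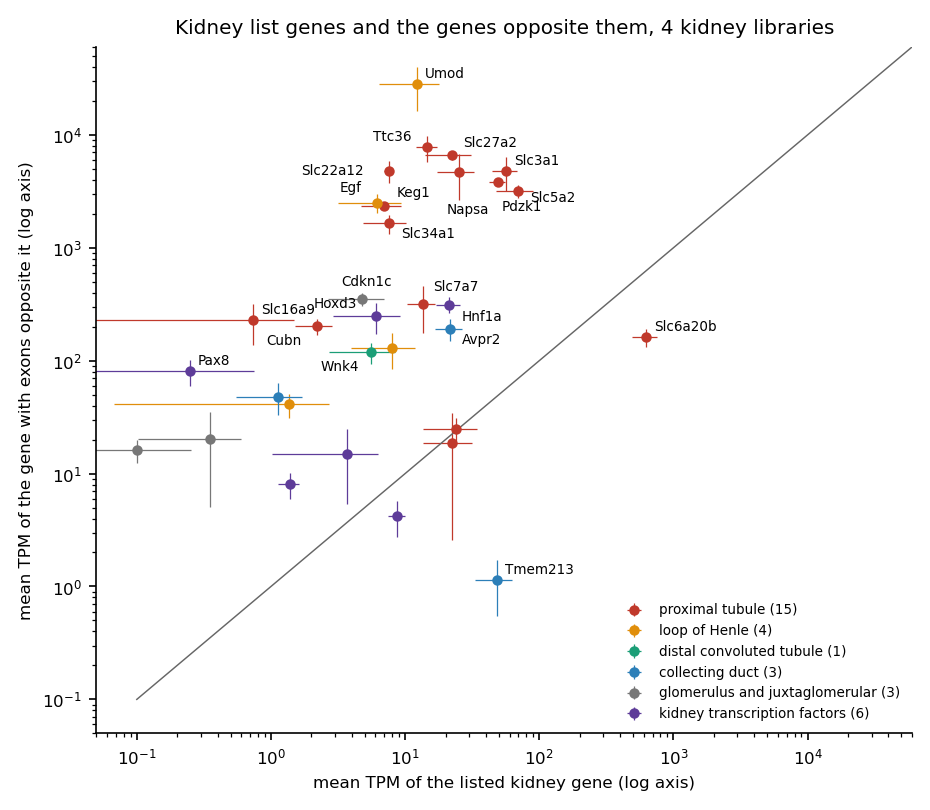
Mean TPM (transcript abundance scaled for length) over the 4 kidney libraries of a listed kidney gene (horizontal) and of the gene with exons opposite it (vertical), both on log axes, for the 32 pairs with a mean of at least 10 counts. Bars are the SD between libraries, colours the gene lists, and the line marks equal values. Most points lie above the line, while Slc6a20b and Tmem213 lie below it.

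A length-adjusted comparison of listed genes with the genes opposite them used TPM. These values are scaled within the counted reads, a small part of those mapped, so they need not give the level of a gene in kidney. Where several genes had the same listed gene as partner, the one with the highest mean kidney count was taken, which favours the opposite gene. Of 48 pairs with overlapping exons, 32 had a mean of at least 10 counts, and in 26 of these the opposite gene was the higher one in all 4 kidney libraries, while the listed gene was in 3. Umod itself stood at 12.2 ± 5.8 TPM and Gm44588 at 28010 ± 11820 (SD, n = 4). The same pair of values was 6.21 ± 3.08 and 2502 ± 479 for Egf and 6330410L21Rik, and 68.9 ± 21.6 and 3167 ± 414 for Slc5a2 and BC017158. Slc22a12 and Nrxn2 stood at 7.57 ± 0.58 and 4782 ± 1068, and Pax8 and Gm13415 at 0.25 ± 0.50 and 80.3 ± 20.3. The clearest exception was Slc6a20b, at 623 ± 134 TPM against 162 ± 28.5 for Sacm1l, although both readings of that pair were well above 0. Atp6v0a4 and Tmem213, a proton pump subunit gene and a gene of intercalated cells, are both listed and lie opposite each other, and Tmem213 was the higher at 48.1 ± 14.9 against 1.13 ± 0.58, so this pair is counted in both directions.

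The highest genes of the kidney libraries were mostly not kidney-high. Gm26825, a lincRNA with a pseudogene opposite that may share reads with near-identical copies, had 52841 to 110253 CPM in kidney and 52305 to 116712 in liver, with no difference past the threshold (edgeR adjusted p = 0.89). The mitochondrial gene mt-Nd5 had 21696 to 47670 CPM in kidney, 26153 to 92269 in liver and at most 3185 in lung and B cells. Of 15 genes of the mitochondrial genome tested, 13 were higher in kidney than the mean of the other tissues, beside 23.2% of all genes tested, and none was kidney-high. Gm37376 opposite Malat1, Gm47428 and Gm10252 opposite ferritin light chain sequences and Gm20721 opposite Gnas averaged 34819 ± 11581, 34396 ± 18869, 31153 ± 15280 and 19823 ± 3019 CPM in kidney (SD, n = 4), and ferritin copies are uncertain for the same reason. Ccdc152 lay opposite Selenop, the gene of a selenium transport protein made by the liver, and had 9187, 24705, 30579 and 12481 CPM in kidney against 98080 to 461901 in liver. It was lower in kidney than in liver (edgeR adjusted p = 2.50e-04), 2.95-fold higher than in lung (edgeR adjusted p = 0.048) and higher than in B cells.

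The summed CPM of genes opposite liver and B cell markers was low in kidney, and that of genes opposite lung markers was not. Genes with exons opposite the liver markers held 40.8 to 118 CPM in kidney libraries and 54396 to 66530 in liver, and those opposite the B cell markers 18.6 to 27.2 in kidney and 3675 to 6670 in B cells. Of 9 genes tested opposite B cell markers, 7 were lower in kidney than the mean, beside 9.31% of all genes tested. Of 6 genes tested opposite liver markers, 2 were lower than the mean and none was higher or kidney-low. Genes opposite the lung markers summed to 6666 to 10946 CPM in kidney and 3549 to 5448 in lung. Most of the kidney sum was on Gm15396 opposite Napsa and on D330041H03Rik opposite the lipid transporter gene Abca3, the latter named after its values were seen, with 3049 ± 391 CPM in kidney (SD, n = 4) and 2594 on average in lung (edgeR adjusted p = 0.58 against lung). Of the 7 genes tested opposite them 2 were higher, 2 lower and 1, opposite Napsa, kidney-high. The 26 markers of blood, immune and endothelial cells gave 1 gene tested as a partner, which did not pass the test. The part of these markers in the results above was not tested.

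Of the 39 kidney-low genes, 32 (82.1%) shared exon sequence with a gene on the other strand, beside 62.9% of all genes tested. Among those that reached 100 CPM in another tissue, the largest difference was that of Gm26580, opposite part of the potassium channel gene Kcnq5, with 0, 0, 0 and 4.67 CPM in kidney, 0 to 20.7 in liver, 98.1 to 171 in lung and 98.2 to 162 in B cells. D030025P21Rik, opposite Ltbp2, a binding protein of latent TGF-beta, had 0, 0, 3.10 and 0 CPM in kidney and 159 to 340 in lung, and it did not exceed 26.9 in liver and 6.56 in B cells. Liver overlapped kidney at both genes, since 1 liver library was at 0, and so did B cells at D030025P21Rik. Gm10684 opposite Jaml, Gm26522 in the body of the cathepsin gene Ctsc and Gm15674 averaged 4.39, 16.2 and 44.0 CPM in kidney, with log2 differences of -3.79, -3.49 and -3.39.

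Open chromatin gave a measure that the counts had not used. The authors mapped DNase I hotspots, regions cut more often by the enzyme than their surroundings, in 20 sets, 1 for each of 5 hybrids and 4 tissues, each pooled from several samples. Kidney sets held 186061 to 238917 hotspots, liver sets 211762 to 295565, lung 152006 to 281978 and B cells 78387 to 156078. A start was counted as open where a hotspot lay within 1 kb. Of the 215 kidney-high genes with a partner, 87.3 ± 1.3% (SD over 5 sets) had an open partner start in kidney, and 67.1% on average in the 15 other sets (range 47.9 to 80.0%). Of all 4198 genes tested with a partner, 85.2% had one in kidney and 82.4% elsewhere, so the kidney share of kidney-high genes was near that of all genes and the share elsewhere was lower. All kidney sets, at 86.0 to 89.3%, were above all others, a difference of 20.2 percentage points (exact two-sided permutation of sets without regard to hybrid, p = 0.0001935). The starts of the counted genes themselves were open at 77.2 ± 1.7% in kidney and 66.8% elsewhere, a difference of 10.4 points (exact permutation p = 0.003483), beside 73.2% and 69.4% over all genes tested. Over all genes the differences were 2.82 points at partner starts and 3.82 at own starts (exact permutation p = 0.1735 and 0.1509). With the same number of hotspots in every set, the 75000 of highest score, kidney-high genes differed by 22.5 points at partner starts and 9.43 at own starts (both exact permutation p = 6.45e-05).

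**Figure D4:**
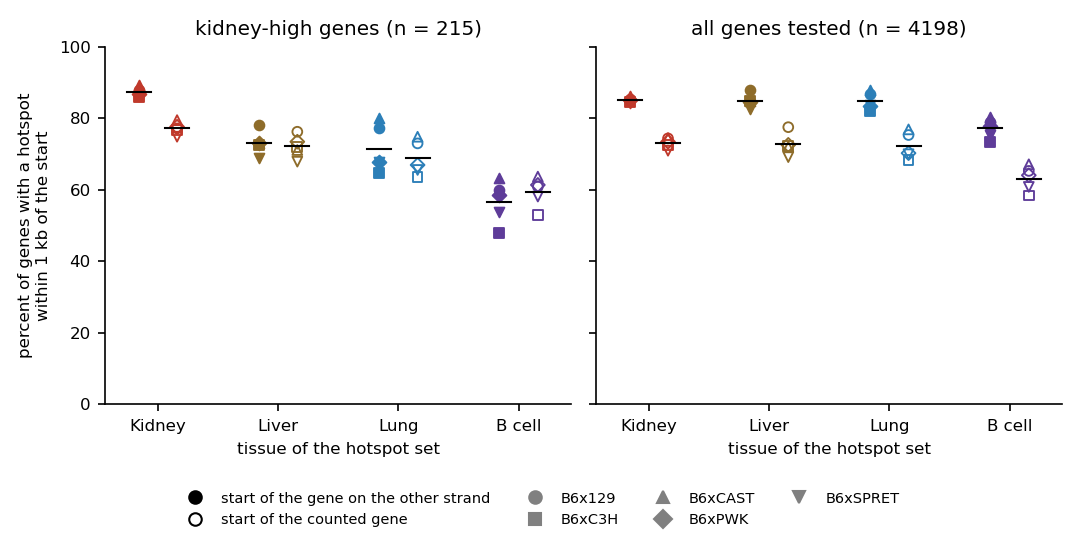
Percent of genes with a DNase hotspot within 1 kb of the start, for the 215 kidney-high genes with a partner (left) and all 4198 genes tested with a partner (right). Filled symbols stand for the start of the gene on the other strand and open symbols for that of the counted gene, the symbol shapes mark the 5 hybrids and bars the mean of a tissue. On the left, filled kidney symbols lie at 86.0 to 89.3%, above those of liver, lung and B cells.

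The share of open partner starts exceeded that of open own starts by 10.1 ± 1.0 points in the kidney sets and by 0.31 points elsewhere (-5.12 to 5.12), a measure that was added after the shares had been seen. The kidney sets did not overlap the others (difference 9.83 points, exact permutation p = 6.45e-05, the smallest that this permutation can give). Over all genes tested the excess was 11.1 to 13.4 points in the kidney sets and 10.4 to 14.9 in the others (difference -0.999, exact permutation p = 0.1296), so that kidney-high genes stood below all genes in the other tissues rather than above them in kidney. Among the 152 kidney-high genes whose own and partner starts lay at least 10 kb apart, partner starts were open at 87.2% in kidney and 63.3% elsewhere (exact permutation p = 6.45e-05) and own starts at 73.9% and 63.2% (p = 0.002322 in the same exact test). For all 2837 genes tested with starts as far apart, these were 85.5% and 82.4% at partner starts and 70.5% and 65.8% at own starts. Partner starts open in all 5 kidney sets and in no other set numbered 10 of 215 (4.65%), beside 15 of 4198 (0.357%), and own starts of that kind 5 of 215 (2.33%), beside 26 of 4198 (0.619%).

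At some named pairs the hotspots told own and partner starts apart, with the more kidney-restricted start on either side. The starts of Slc5a2, Avpr2 and Slc5a10 had a hotspot in all 5 kidney sets and in none of the 15 others, that of Slc34a1 in 4 kidney sets only and that of Cubn in 5 kidney sets and 1 lung set. Of the genes counted opposite them, BC017158, Arhgap4, Fam83g and Gm13270 had a hotspot at the start in all 20 sets, as did Nrxn2, Gpr89 and Prepl. Pfn3 was open at its start in 5 kidney, 2 liver and 4 lung sets. The start of Umod was open in 5 kidney and 4 liver sets, while that of Gm44588 was open in 1 kidney and 5 liver sets. Pax8 was open at its start in 5 kidney sets and 1 liver set, and Gm13415 at its own start in 5 kidney sets and no other, so both starts of that pair were open in kidney. Pdzk1 and Slc3a1, whose opposite genes were also counted in liver, were open in 5 kidney and 5 liver sets. Egf was open in every kidney, liver and lung set although the counts opposite it were high in kidney alone, and Slc22a12 in 5 kidney and 5 B cell sets. The start of 6330410L21Rik lies 1558 bases from that of Egf, so their windows of 1 kb overlap. At Hoxa10 the start of the counted gene was open in all 20 sets and that of Hoxa11os in 1 kidney set and 1 B cell set. Slc13a2os was open at its own start in 5 kidney sets only, and Slc13a2 in 5 kidney, 5 liver and 5 lung sets. Hoxb3os was open at its own start in 5 kidney, 2 lung and 1 B cell sets, and Hoxb3 in 3 kidney, 3 liver and 1 lung sets.

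**Figure D5:**
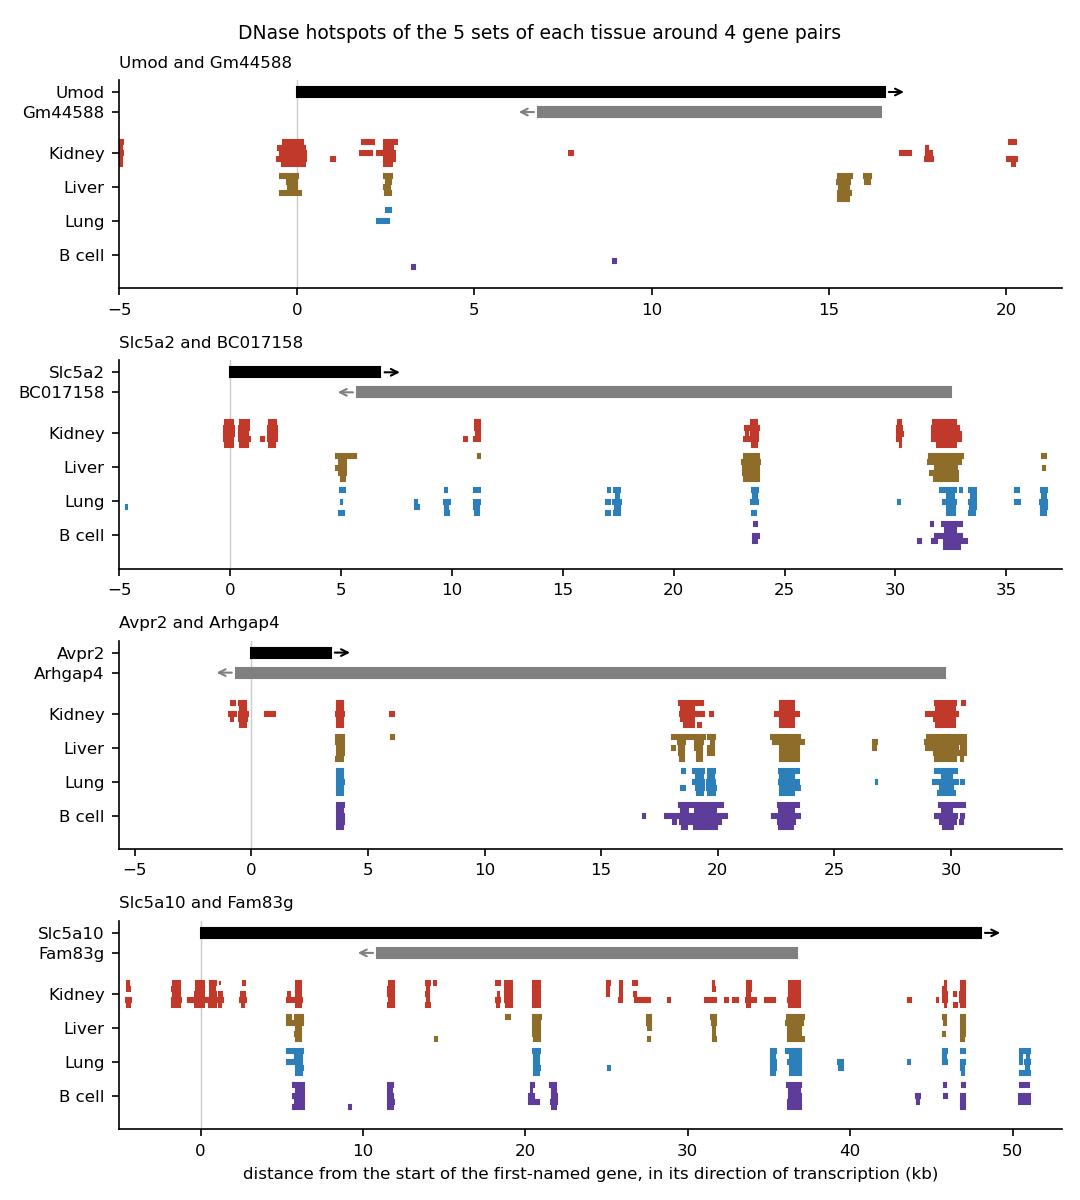
DNase hotspots (coloured boxes, 1 row per hybrid) of the 5 sets of each tissue around Umod, Slc5a2, Avpr2 and Slc5a10 (black bars) and the counted genes opposite them (grey bars), with arrows for the direction of transcription. The horizontal axis is the distance in kb from the start of the first-named gene. Kidney boxes lie within 1 kb of position 0 in all 4 panels, and those of another tissue do so at Umod in liver only.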

How the data were processed

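Gene tables of 17 total RNA libraries (mirVana extraction, ERCC spike-in RNA, a stranded TruSeq kit) were used. The authors mapped the reads to mm10 and deposited RSEM expected counts and TPM per gene, with STAR and RSEM named by the study. Versions of RSEM, its strand setting and annotation are not given in the sources used here. The authors also deposited DNase hotspots per hybrid and tissue, pooled over samples, with a −log10 score, which was used only to rank them.

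Expected counts were rounded and fitted in 1 model of all 17 libraries with edgeR 4.0.16 (R 4.3.3), with TMM factors, a filter by tissue (minimum count 10) and Benjamini-Hochberg adjustment over 4479 of 53715 genes. CPM are counts scaled by library size and TMM factor. Total counts of 283725 to 809337 limit the precision of low genes. Floors are 3 counts over a tissue and cover counting error only. Alternatives were DESeq2 1.42.0, limma 3.58.1 on log2(TPM + 1), which understates changes of low genes, other scaling, filters, hybrid as covariate and left-out samples. On simulated counts (3524 genes in that step, 200 changed 4-fold), 88% of genes higher in all 3 comparisons were recovered.

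Symbols matched GENCODE vM21 for 53620 genes. Hotspot shares were compared by exact permutation of the 5 kidney among 20 sets (15504 choices). The permutation did not keep the sets of a hybrid together, so it ignored the pairing of tissues by hybrid.

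Named genes were the 15 kidney-high genes of at least 100 CPM with the largest difference, the 10 highest in kidney, the 5 most reduced kidney-low genes that reached 100 CPM in another tissue, and kidney-high genes that are list members or lie opposite one, up to 10 per list. Members and lists were chosen with earlier results of these data known. Hotspots of stem cells were not used. A withheld gene counts in the totals but is not reported here.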

Additional observations from a re-analysis of the deposited data

Results flagged for a closer look

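Among 71 groups of 4 to 10 libraries or hotspot sets examined for a value far from the rest, 5 were noted. For normally distributed values, which counts near 0 are not, chance alone notes about 1 in 20. Oxa1l, opposite Slc7a7, had 1788 CPM in kidney library 3 and 644 to 823 in the other kidney libraries. Hoxb3os had 1332 CPM in kidney library 4 and 970 to 1018 in the others. The kidney-low genes Gm26580 and D030025P21Rik had 4.673 CPM in kidney library 4 and 3.104 CPM in kidney library 3, and 0 in the other kidney libraries. These values rest on 2 counts and 1 count, and a single library above 0 is always noted by this rule. The normalization factor of lung library 1 was 1.882, beside 1.41 to 1.45 in the other lung libraries.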

How the results depend on the processing

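Under all alternatives no named gene reversed its direction. Of their differences from the mean of the other tissues, 1338 kept direction and side of the threshold, 19 lost the call (at Gm26825, Gm37376, Gm47428 and Gm10252) and 3 gained it (Ccdc152). The 15 largest differences stayed kidney-high throughout, except for Nrxn2 where the 10 highest kidney genes had been removed. Of the 39 named kidney-high genes, 32 were still kidney-high with a minimum count of 20, 35 with total counts alone, 36 with limma and without the 10 highest genes, and 38 or 39 otherwise. Main and alternative sets of kidney-high genes shared 163 genes (69.7% of 234) with limma and with total counts alone, 164 with a minimum count of 20, 195 without a filter and 200 to 232 when 1 library was left out. Of the 39 kidney-low genes, 17 were shared with limma, 21 with total counts alone, 20 without a filter and 25 to 36 when 1 library was left out.

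With limma on log2(TPM + 1), kidney was lower than the mean at 963 genes, higher than liver at 1665 and lower at 225, and higher than lung at 384 and lower at 1758. With total counts alone the values were 637 lower than the mean, 1376 higher and 251 lower than liver, 409 higher and 2021 lower than lung, and 1904 lower than B cells. DESeq2 gave 680 genes lower than the mean and 60 kidney-low genes. With a minimum count of 5, 1057 genes were higher than liver. Without a filter 2397 were higher than the mean, 1348 higher and 695 lower than liver, 1658 lower than lung, 3180 higher and 1936 lower than B cells, and 467 were kidney-high. Exon overlap of kidney-high genes was 59.5% with a minimum count of 5, 78.8% with 20 and 49.7% without a filter, 77.8% by gene bodies and 56.8% for protein-coding partners. Kidney-high genes opposite transcription factors numbered 3 with a minimum count of 20 and 11 without a filter, where the glomerulus list gave 1, the mitochondrial genome 1 and the os genes 9. The causes were not tested, other than that a filter changes the number of genes tested.

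Leaving out 1 library gave 1006 to 1167 genes higher and 322 to 495 lower than the mean, 662 to 784 and 384 to 530 against liver, 715 to 924 and 882 to 1257 against lung, 1384 to 1703 and 1135 to 1452 against B cells, 211 to 275 kidney-high and 30 to 45 kidney-low genes, and 62.4 to 67.8% exon overlap. Kidney-high counts were 13 to 16 for the proximal tubule, 7 to 8 for the loop of Henle, 0 to 1 for the mitochondrial genome (1 without liver library 4) and 5 to 7 for os genes. With 1 library or 1 hybrid left out, the excess at partner starts was 19.2 to 23.0 points and that of partner over own starts 8.62 to 11.2. The labels give no replicate numbers to pair samples by, and the hybrid was used instead. With hybrid as a covariate there were 255 kidney-high genes (230 shared) and 43 kidney-low genes (34 shared), and no call of a named gene against the mean changed. Totals of at most 809337 counts limit the calls to well-counted genes.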
